A study of Homo sapiens with 6 samples.

Results

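Homologous recombination, the Fanconi anaemia pathway and the replication checkpoint are described here through 42 genes, chosen by name from these pathways. All 42 are listed among the 26364 genes of the authors' deposited table, and all 42 are among the 12061 genes that have an adjusted p there, called tested genes below. The cells were REH, a line grown from a human acute lymphoblastic leukaemia of early B cells. The tested cultures were transduced by lentivirus with a short hairpin RNA against STAT3 (shSTAT3, 3 libraries), a transcription factor downstream of cytokine receptors, and the others with a scramble hairpin (3 libraries). Selection of both groups in puromycin lasted 3 days and dead cells were then taken out, and the replicates came from independent experiments. How many hairpins were used, and their sequences, is not stated in the labels.

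Homologous recombination repairs a broken chromosome by copying the intact sister, so it works mainly in cells that have replicated their DNA. Nucleases first trim the broken ends, mediators of the BRCA family then load a recombinase on the single strands, and helicases and nucleases resolve the joined molecules. The Fanconi pathway removes links between the 2 DNA strands. Its core complex attaches ubiquitin to the FANCI-FANCD2 pair at a stalled fork. The checkpoint kinases ATM and ATR sense breaks and stalled forks, and pass the signal to CHEK2 and CHEK1, which hold the cell cycle. Many of these genes are known to be transcribed mostly in cells preparing for or passing through DNA replication.

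Per gene, the table holds one mean of normalized counts over the 6 libraries together with the fold change (log2), its p and the adjusted p, and no value for any single library or group. The level of a gene in shSTAT3 cells is therefore given below as a percent of its scramble level, computed from the fold change, with a 95% interval from the standard error that fold change and p imply. The fold changes appear shrunken toward 0, so the percents may understate changes, most of all at low means. The interval also assumes that p was computed from the same fold change, which is not stated. A gene is said to fall or rise where its adjusted p in the authors' deposited table lies under 0.05. Genes with a single read give size factors of 0.935 to 1.13, a difference in depth of up to 1.21 times between libraries, around a total of about 11485100 normalized counts. Genes with a single read over all libraries numbered from 164 to 363 per library, and the library with the most of them cannot be left out, as no member has values per library. In shSTAT3 cells STAT3 was at 29.8% of scramble, and this value also set the direction of all fold changes, because the table does not name their numerator. Of 13 B-cell precursor markers 12 had means from 1289 to 20516 and VPREB1 was listed at 0, while 5 T-cell markers reached at most 0.516 and 3 erythroid markers at most 1.41. Among 7 myeloid markers the means ran from 1.58 for FCGR1A to 2330 for MPO, with CD14 at 6.66, and of 4 fibroblast markers DCN and COL1A2 were listed at 0 while PDGFRB reached 806. Of those markers CSF1R, COL1A1 and PDGFRB fell and ITGAM rose in the authors' deposited table, and their part in the results below was not tested.

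Of the 42 genes, 28 fell in shSTAT3 cells, 2 rose and 12 did not pass. Of all tested genes 23.2% were called lower and 21.3% higher, and among the 8911 tested genes whose mean lay within the range of the members the shares were 25.3% and 21.8%. The median log2 fold change of the members was −0.52, against 0.0027 over all tested genes. Their quartiles were −0.77 and −0.20, and 18 of the 42 lay in the lowest 10% of tested fold changes. The members that reached a 2-fold fall were RBBP8, BRCA2, USP1 and BRIP1, 4 of the 42. Of all 12061 tested genes 346 were at least 2-fold lower, called or not. ATM and FAN1 were the members that rose. With the trend on GC content, length and mean level removed over the 11774 tested genes that have a length and GC content, 24 members fell and 4 rose, against 21.0% and 22.3% of those genes, as PALB2, RAD51B, XRCC2 and FANCB no longer passed and NBN and ATR passed as higher. In bulk RNA, fewer cells that make a transcript and less of it per cell cannot be told apart, and the share of cells in each phase of the cell cycle was not measured.

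**Figure D1:**
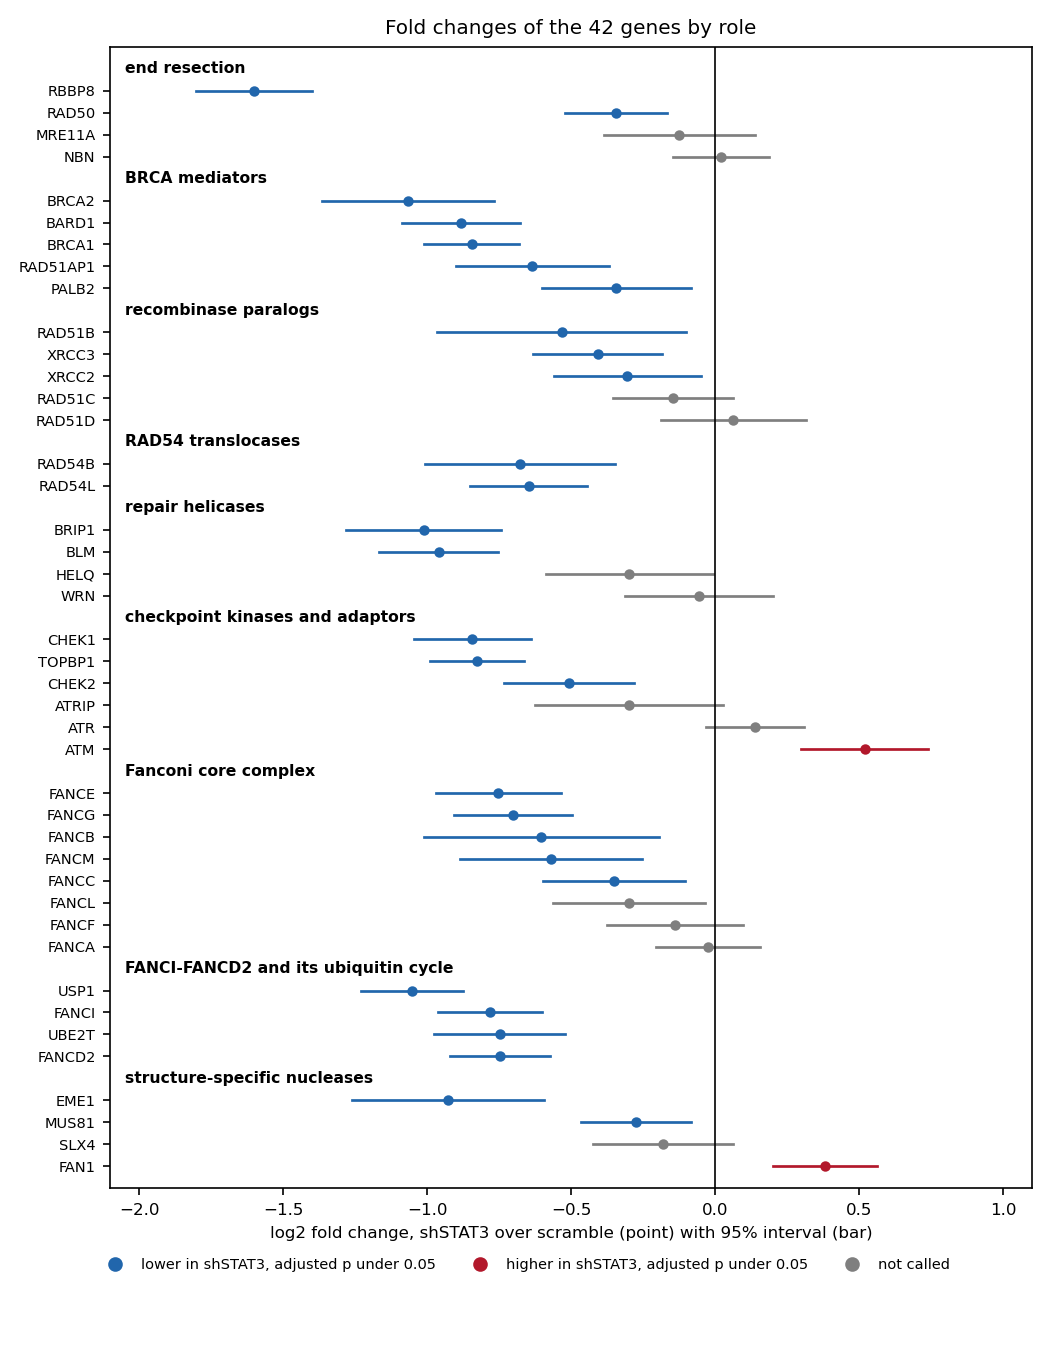
Log2 fold change of each of the 42 genes in shSTAT3 over scramble cells, with a 95% interval, grouped by role (3 libraries per group). Points left of 0 are lower in shSTAT3 cells, and the falls of RBBP8, BRCA2, USP1 and BRIP1 lie at or beyond −1.0 while ATM and FAN1 lie right of 0.

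**Figure D2:**
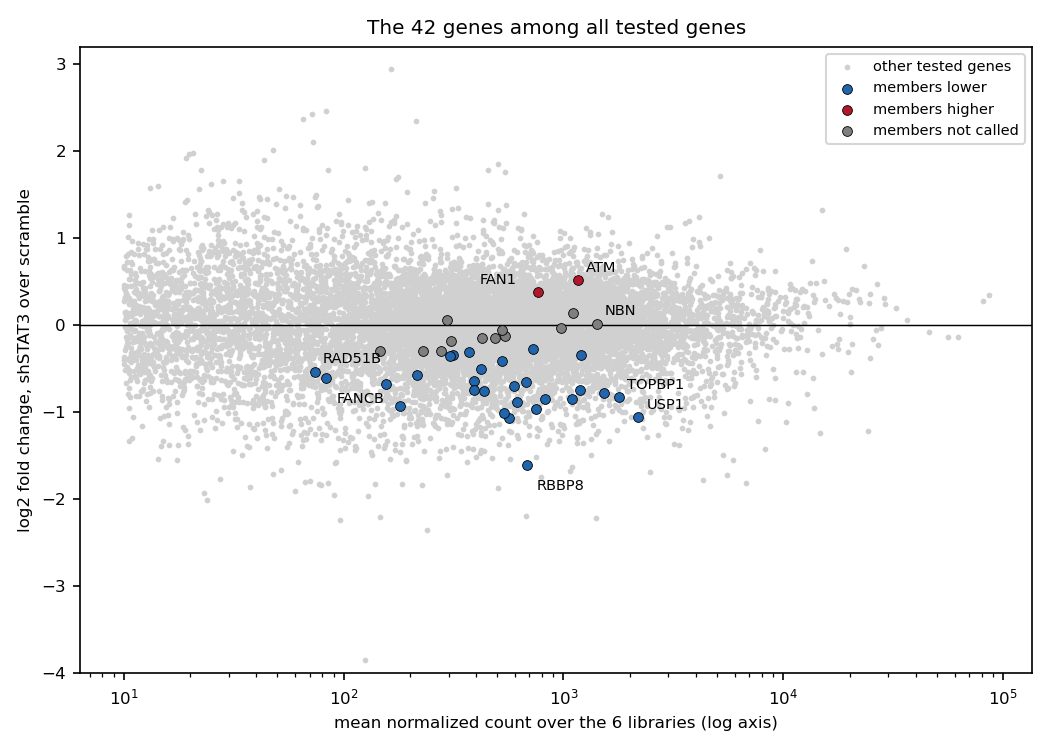
Log2 fold change in shSTAT3 over scramble cells against the mean normalized count over the 6 libraries (log axis) for the 12061 tested genes, with the 42 members in colour. The members span means from 73.9 to 2186, and 37 of the 42 have a negative fold change, against 5991 of all 12061 tested genes.

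The first step, trimming of DNA ends, gave the largest fall and some of the smallest changes side by side. RBBP8 encodes CtIP, the cofactor that starts end resection together with the MRN nuclease complex. It lies on chromosome 18 from 22798261 to 23026488 on the plus strand (GRCh38, GENCODE release 29) and fell to 33.0% of its scramble level (95% interval 28.7% to 37.9%). In the authors' deposited table it had rank 25 by p of the 12061 tested genes (adjusted p = 1.42e-51). RAD50, the coiled-coil subunit that tethers DNA ends, fell to 78.8% (69.7% to 89.1%). The nuclease subunit MRE11A was at 91.7% (76.5% to 110%) and the subunit NBN, which recruits ATM, at 101% (90.3% to 114%), and neither passed. The interval of RBBP8 thus lies apart from those of all 3 MRN subunits. Per kilobase of a single annotated transcript chosen for each gene, NBN had a mean of 303 normalized counts over both groups. RBBP8 had 206, RAD50 145 and MRE11A 78.8.

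The BRCA mediators all fell, 5 of 5. BRCA1 and BARD1 form a ubiquitin ligase that acts early in recombination, and their levels stood at 55.7% (49.7% to 62.4%) and 54.2% (47.0% to 62.6%) of scramble, with intervals that nearly coincide. BRCA2, which loads the recombinase on single-stranded DNA, fell to 47.8% (38.8% to 58.7%). PALB2, the bridge between BRCA1 and BRCA2, fell less, to 78.9% (65.9% to 94.3%), and its interval does not reach that of BRCA2. RAD51AP1, which helps the recombinase to pair strands, fell to 64.4% (53.6% to 77.4%). Adjusted p-values in the authors' deposited table were 2.96e-22 for BRCA1, 1.18e-15 for BARD1, 4.2e-11 for BRCA2, 1.69e-05 for RAD51AP1 and 0.0236 for PALB2.

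The 5 recombinase paralogs, which form small complexes that support the recombinase filament, had smaller fold changes than the mediators (medians −0.30 and −0.85). XRCC3 fell to 75.4% of scramble (64.5% to 88.1%), XRCC2 to 81.0% (67.9% to 96.6%) and RAD51B to 69.1% (51.2% to 93.3%). RAD51C, the subunit found in both paralog complexes, was at 90.4% (78.2% to 104%) and RAD51D at 104% (87.7% to 124%), and they did not pass. RAD51B had the lowest mean of all 42 genes, 73.9 normalized counts in the authors' deposited table, and its interval is the widest of the members on the log2 scale. XRCC2 and RAD51B lie close to the threshold, and the authors' deposited table gives them an adjusted p of 0.0439 and 0.0378. Just outside it were FANCL and HELQ, described below. The RAD54 translocases, motor proteins that remodel the recombining DNA, both fell, RAD54L to 63.9% (55.5% to 73.5%) and RAD54B to 62.5% (49.7% to 78.5%).

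Of the 4 repair helicases 2 fell and 2 did not pass. BRIP1, a helicase that binds BRCA1 and is also a Fanconi gene, fell to 49.6% of scramble (41.2% to 59.8%), and BLM, the Bloom syndrome helicase, fell to 51.4% (44.6% to 59.3%). WRN, the Werner syndrome helicase, was at 96.2% (80.4% to 115%), and HELQ, a helicase of replication-linked repair, at 81.3% (66.5% to 99.4%). HELQ did not pass after adjustment (adjusted p = 0.088 in the authors' deposited table). BLM and WRN belong to the same RecQ family, and their intervals do not overlap. BLM works in a complex with TOP3A, RMI1 and RMI2, which dissolves joined chromosomes. RMI1 and RMI2, subunits outside the 42 genes, fell to 47.8% and 42.2% of scramble, close to BLM, while the topoisomerase TOP3A fell to 82.2% (adjusted p = 0.00595 in the authors' deposited table).

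Checkpoint genes gave both directions. ATM, the kinase that responds to broken ends, rose to 143% of its scramble level (123% to 167%, adjusted p = 2.33e-05 in the authors' deposited table). It lies on chromosome 11 from 108222484 to 108369102 on the plus strand. ATR, the kinase of stalled forks, was at 110.2% (97.9% to 124%) and its binding partner ATRIP at 81.3% (64.8% to 102%), and neither passed. TOPBP1, which switches ATR on, fell to 56.4% (50.3% to 63.2%), and CHEK1, the kinase that ATR activates, fell to 55.7% (48.4% to 64.1%). CHEK2, the kinase that ATM activates, fell to 70.4% (60.2% to 82.3%). Of the sensor kinases ATM was thus higher and ATR did not pass, while the activator TOPBP1 and both effector kinases were lower. ETAA1, an activator of ATR outside the 42 genes, fell to 58.2% (46.2% to 73.3%).

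In the Fanconi core complex 5 of 8 genes fell and none rose. FANCE fell to 59.3% of scramble (51.0% to 69.0%), FANCG to 61.5% (53.3% to 70.9%), FANCB to 65.8% (49.6% to 87.4%), FANCM to 67.4% (54.2% to 83.9%) and FANCC to 78.4% (adjusted p = 0.0147 in the authors' deposited table). FANCA was at 98.3% (86.7% to 111%), FANCF at 90.7% (77.0% to 107%), and the ubiquitin ligase subunit FANCL at 81.3% (67.7% to 97.6%), which did not pass after adjustment (adjusted p = 0.0585 in the authors' deposited table). The core is built of 3 smaller units, and the fall was uneven in each of them. In the unit of FANCA, FANCG and FAAP20, FANCG fell, while FANCA was as above and FAAP20 was at 108% (91.1% to 128%). In that of FANCB, FANCL and FAAP100, FANCB fell and FAAP100 rose to 119.6% (105% to 137%). In that of FANCC, FANCE and FANCF, the interval of FANCE does not reach that of FANCF.

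The target of the core complex and the enzymes that act on it all fell, 4 of 4. FANCI stood at 58.2% of scramble (51.4% to 66.0%), FANCD2 at 59.6% (52.8% to 67.2%) and UBE2T, the enzyme that carries the ubiquitin, at 59.5% (50.9% to 69.6%). USP1, which takes the ubiquitin off again, fell to 48.2% (42.7% to 54.5%). In the authors' deposited table it had rank 120 by p of the 12061 tested genes (adjusted p = 1.02e-29). It was the most abundant member, at 547 normalized counts per kilobase over both groups, ahead of UBE2T at 430. WDR48, the cofactor that USP1 needs for full activity, rose to 119% (103% to 138%).

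Nucleases that cut branched DNA did not move together. EME1, the partner that MUS81 needs to cut, fell to 52.6% of scramble (41.7% to 66.3%), and MUS81 itself to 82.7% (72.4% to 94.3%), with intervals that do not overlap. EME2, another partner of MUS81, rose to 156% (112% to 218%) from a low mean of 69.8 in the authors' deposited table. SLX4, the scaffold that holds several nucleases, was at 88.2% (74.5% to 104%). FAN1, a nuclease bound by ubiquitinated FANCD2, rose to 130.2% (115% to 148%, adjusted p = 0.000173 in the authors' deposited table). FAN1 lies on chromosome 15 from 30903852 to 30943108 on the plus strand.

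**Figure D3:**
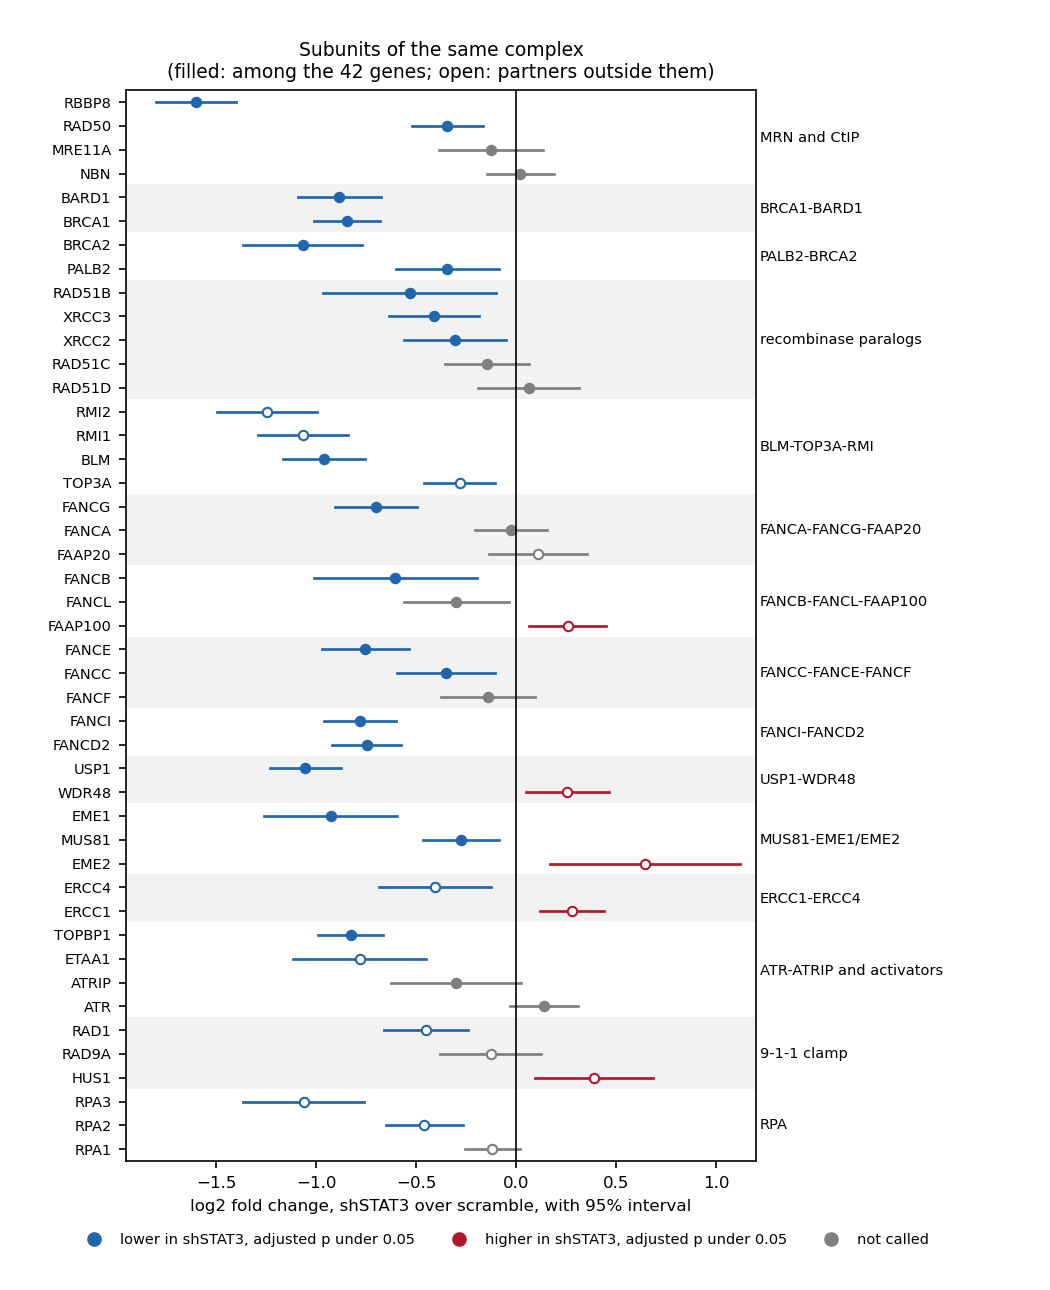
Log2 fold change in shSTAT3 over scramble cells, with 95% intervals, for subunits of the same complex, with members filled and partners from outside the 42 genes open. FANCI and FANCD2, and BRCA1 and BARD1, lie together, whereas RBBP8 and MRN, USP1 and WDR48, and EME1 and EME2 lie apart.

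The partners named so far that are outside the 42 genes were chosen for their complexes after their values were seen. The same holds for the genes of the next 3 sentences. RPA, the trimer that coats single-stranded DNA, had RPA3 at 48.0% (38.9% to 59.1%), RPA2 at 72.8% (63.6% to 83.3%) and RPA1 at 92.1% (83.7% to 101%), of which RPA1 did not pass. In the ring-shaped checkpoint clamp RAD1 fell to 73.2% (63.3% to 84.6%), HUS1 rose to 131% (107% to 161%) and RAD9A was at 91.6% (76.9% to 109%). The nuclease pair ERCC1 and ERCC4 moved apart, with ERCC1 at 121% (109% to 136%) and ERCC4 at 75.4% (62.2% to 91.6%).

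Longer lists of the same pathways, without the 42 genes, also held more genes that fell than rose. Of 28 other recombination genes tested, 15 fell and 1 rose (median log2 fold change −0.29), and RMI2, MMS22L and RMI1 had the smallest adjusted p. MMS22L, which helps load the recombinase at stalled forks, stood at 50.1% of scramble. Of 22 other checkpoint genes 15 fell and 2 rose (median −0.51), with the smallest adjusted p for RNF168, PKMYT1 and CLSPN. RNF168, a ubiquitin ligase that marks chromatin around breaks, fell to 47.5%, PKMYT1, an inhibitory kinase of CDK1, to 53.5%, and CLSPN, the adaptor through which ATR reaches CHEK1, to 60.2%. Of 14 other Fanconi pathway genes 5 fell and 3 rose (median −0.07). These shares, 35.7% lower and 21.4% higher, stand beside 23.2% and 21.3% of all tested genes. The Fanconi genes with the smallest adjusted p, UHRF1, MAD2L2 and DCLRE1A, were at 55.3%, 78.2% and 59.7%.

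By the share of genes that fell, the 42 genes lay between replication genes and other forms of repair. All 31 replication fork genes fell (median log2 fold change −0.82), and the smallest adjusted p were those of MCM6, MCM5 and TYMS. Of 19 regulators of the E2F and DREAM system, which controls transcription of replication and mitosis genes, 11 fell and 2 rose (median −0.50). MYBL2, E2F1 and FOXM1, chosen here and in the lists below by smallest adjusted p, were at 49.9%, 48.5% and 55.5% of scramble. End joining, the repair of breaks without a template, had 5 of 12 genes lower and 1 higher (median −0.21), with XRCC4 at 53.8%, XRCC6 at 81.9% and NHEJ1 at 149%. Nucleotide excision repair, which removes bulky lesions, had 4 of 19 lower and 2 higher (median −0.05), with CETN2 at 49.8%, XPA at 54.4% and UVSSA at 154%. That the replication genes fell as a whole is a measured fact beside the falls of the members, and its part in them was not tested.

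**Figure D4:**
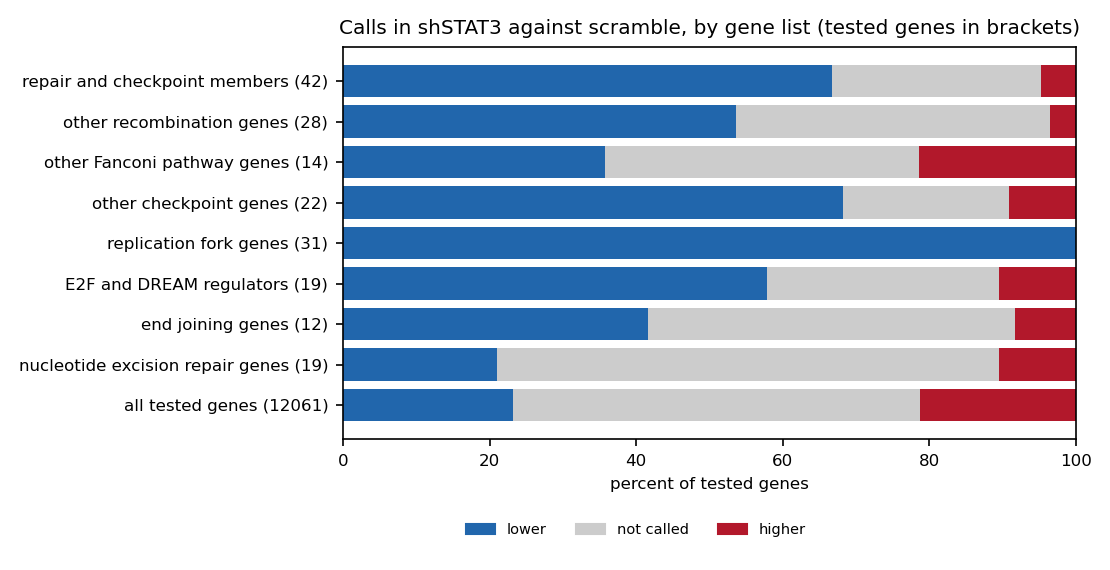
Percent of tested genes called lower, not called and called higher in shSTAT3 against scramble cells at an adjusted p under 0.05, for the 42 members, 7 other lists and all tested genes. The lower share is 66.7% for the members, 100% for replication fork genes, 21.1% for nucleotide excision repair and 23.2% for all tested genes.

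Some of these genes start head to head with another gene, on opposite strands and a short distance apart. With RefSeq starts on GRCh38.p14, 14 members had a neighbour in the table on the other strand whose start lay within 1000 bases, and 13 such pairs had both genes tested. In 9 of the 13 the member fell. The neighbour fell in 1 of these 9 pairs, rose in 2 and did not pass in 6. BRCA1 is counted both with NBR1 and with NBR2. TF, the neighbour of TOPBP1, had a mean of only 11.4 and an interval of 71.6% to 177%. Over all 970 head-to-head pairs of tested genes, a gene that fell had a neighbour that also fell in 33.9% of cases and one that rose in 14.7%. With 9 pairs these shares are a description and were not tested.

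EME1 and MRPL27, a gene of the mitochondrial ribosome, start 45 bases apart. EME1 fell to 52.6% of scramble while MRPL27 rose to 126% (107% to 149%). PALB2 and DCTN5, a subunit of the dynactin motor complex, start 156 bases apart, and PALB2 fell to 78.9% while DCTN5 rose to 131% (118% to 145%). BRCA1 and the noncoding gene NBR2 start 193 bases apart, and BRCA1 fell to 55.7% while NBR2 was at 116% (87.6% to 155%). NBR1, which also has a RefSeq start within 82 bases of one of BRCA1, was at 107% (93.9% to 123%). The stretches around these paired starts are shown because the 2 genes differ in direction or level. Each is the strand of the member, with the bases from the start of the neighbour to the start of the member in capitals (RefSeq, GRCh38.p14). They lie at chr17:50372979-50373278 on the plus strand for EME1, chr16:23641261-23641560 on the minus strand for PALB2 and chr17:43125315-43125614 on the minus strand for BRCA1.
EME1: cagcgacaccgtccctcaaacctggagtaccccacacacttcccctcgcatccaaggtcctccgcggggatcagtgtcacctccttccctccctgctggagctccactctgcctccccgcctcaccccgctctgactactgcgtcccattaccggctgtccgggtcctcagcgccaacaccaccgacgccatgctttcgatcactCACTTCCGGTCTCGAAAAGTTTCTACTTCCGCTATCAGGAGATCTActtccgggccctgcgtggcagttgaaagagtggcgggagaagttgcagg
PALB2: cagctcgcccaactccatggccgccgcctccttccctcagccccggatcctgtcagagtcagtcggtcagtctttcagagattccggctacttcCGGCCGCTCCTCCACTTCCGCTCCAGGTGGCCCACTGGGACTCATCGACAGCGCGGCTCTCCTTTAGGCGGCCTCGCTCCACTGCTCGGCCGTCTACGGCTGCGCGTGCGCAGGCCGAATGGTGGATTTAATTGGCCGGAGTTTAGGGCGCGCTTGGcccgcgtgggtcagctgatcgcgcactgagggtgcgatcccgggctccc
BRCA1: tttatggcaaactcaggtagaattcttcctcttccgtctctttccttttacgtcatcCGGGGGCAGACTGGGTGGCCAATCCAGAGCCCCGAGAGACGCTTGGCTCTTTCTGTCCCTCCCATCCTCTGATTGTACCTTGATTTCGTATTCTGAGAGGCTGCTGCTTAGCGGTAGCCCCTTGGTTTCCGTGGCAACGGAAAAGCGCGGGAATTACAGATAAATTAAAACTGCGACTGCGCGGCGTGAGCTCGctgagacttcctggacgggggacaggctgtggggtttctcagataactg

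RAD51AP1 was the member that fell together with its neighbour, C12orf4, which stood at 76.8% (65.0% to 90.7%). ATM rose while NPAT, a factor for histone gene transcription that starts 429 bases away, was at 89.1% (76.8% to 103%), and their intervals do not overlap. SLX4 did not pass while its neighbour DNASE1 rose to 151% (121% to 189%).

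**Figure D5:**
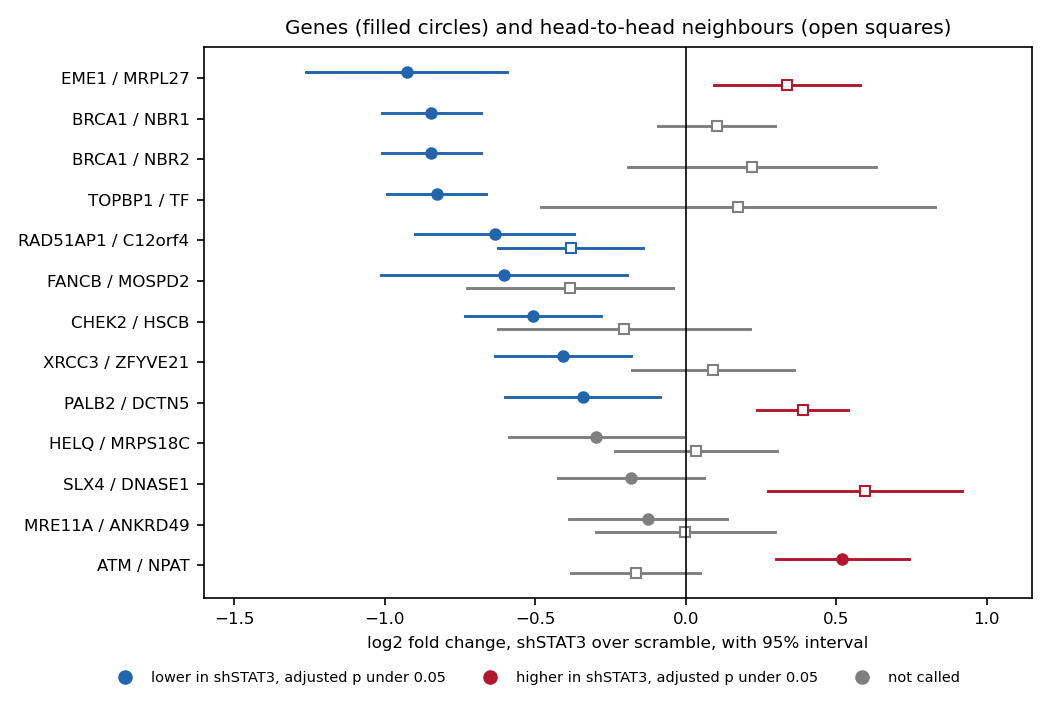
Log2 fold change in shSTAT3 over scramble cells, with 95% intervals, of members (filled circles) and of tested genes that start head to head with them within 1000 bases (open squares). In the pairs of EME1, PALB2 and SLX4 the neighbour lies right of 0 and was called higher, and in the pair of RAD51AP1 both lie left of 0.

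Short motifs were looked for on both strands in the RefSeq windows from 250 bases before to 50 after each start, which were matched for 38 of the 42 genes (52 windows). The STAT motif TTCNNNGAA was in 4 of the 52 windows (7.69%), against 7.66% of all 35116 windows, 6.26% of those of tested genes and 5.89% of those of tested genes that fell. The E2F motif, in any of the forms TTTCCCGC, TTTCGCGC, TTTGCCGC and TTTGGCGC, was in 5 of the 52 (9.62%), against 3.31% of all windows, 5.16% of those of tested genes and 7.13% of those of tested genes that fell. The cell cycle element TTTGAA was in 13.5% of the member windows, against 15.2% of all windows, 10.4% of those of tested genes and 13.3% of those of tested genes that fell. CCAAT was in 48.1%, against 34.6%, 35.2% and 38.2% in the same order. Windows of one gene can overlap and hold the same match, as those of CHEK1 do for CCAAT. Counted by gene, CCAAT was in 19 of 38 members, 4224 of 9645 tested genes and 1117 of the 2288 that fell. The E2F motif, counted the same way, was in 5 of 38, 675 of 9645 and 232 of 2288. STAT and E2F matches do not overlap in the member windows, and these are matches of letters, not measured binding. The 4 members that hold a STAT match are among the 26 that fell of the 38 with a window. Over tested genes with a window, 186 of the 824 with a STAT match fell, against 2288 of all 9645. The 4 are shown with the match in capitals and up to 10 bases on each side, where the window reaches that far, and positions are counted from the start (RefSeq, GRCh38.p14). The stretches lie at chr3:10026187-10026210 (plus), chr3:133662049-133662077 (minus), chr14:45135832-45135860 (plus) and chr18:22933078-22933096 (plus).
FANCD2 at −245: ccatcTTCACTGAAagctggctcc
TOPBP1 at −126: ggcccaagctTTCCCTGAAgccccaccgc
FANCM at −88: ctgtgaaggtTTCCGGGAAgccagccaat
RBBP8 at −250: TTCACAGAAccgcaagggc
The E2F matches lay in FANCD2, TOPBP1, XRCC2 and FANCC, which fell, and in FANCA, which did not pass. Those of FANCD2 and TOPBP1, the members that hold both motifs, lie next to the start and are shown with that of FANCA, on the strand of the gene and with the match in capitals. The stretches below lie at chr3:10026425-10026452 (plus), chr3:133661931-133661958 (minus) and chr16:89816802-89816829 (minus).
FANCD2 at −2: gtcgggcctgGCGGGAAAgtcgaaaact
TOPBP1 at −7: cgcgcggttgGCGCGAAAgtcggttccc
FANCA at −172: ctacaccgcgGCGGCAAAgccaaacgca

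Counts of some members could include reads of a gene in the same place. Exons of 25 of the 42 genes overlap those of another gene in GENCODE release 29, and use of strand in the authors' counting is not given in the sources used here. FANCA, which did not pass, overlaps ZNF276 on the other strand, and ZNF276 rose with an interval of 174% to 230.2% of scramble (mean 636 normalized counts against 977 for FANCA in the authors' deposited table). ATM overlaps NPAT and C11orf65, and FAN1 overlaps MTMR10 at 88.5% (72.8% to 108%). NPAT and MTMR10 did not pass, and C11orf65 had a mean of 2.95 and no adjusted p in the authors' deposited table. ATRIP shares exons with TREX1, at 82.5% (62.9% to 108%), so its value is uncertain. The same doubt holds for other members that overlap a gene with a higher mean. EME1 (mean 180) overlaps LRRC59 (mean 2114), which fell to 82.7% (74.1% to 92.2%). MUS81 (mean 723) overlaps CFL1 (mean 7688), and CHEK1 (mean 825) shares exons on its own strand with STT3A (mean 1847). XRCC3 (mean 524) overlaps KLC1 (mean 1044), and FANCI (mean 1531) overlaps POLG (mean 1691). CFL1, STT3A, KLC1 and POLG did not pass. RAD54L (mean 678), which fell, overlaps LRRC41 (mean 1370), which rose to 125% (112% to 140%). FANCL (mean 277) overlaps VRK2 (mean 369), which fell to 76.4% (65.0% to 89.9%). FANCD2, CHEK2 and BRCA1 also have partial copies elsewhere in the genome, and how shared reads were assigned is not stated. The part of overlaps in these values was not tested. Among the 17 members with no overlap 14 fell and none rose.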

How the data were processed

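Total RNA of 6 REH cultures was sequenced from TruSeq RNA v2 libraries, per the labels' protocols. Bowtie2 and featureCounts, besides Picard, Trimmomatic, bcl2fastq 2.19, build hg38 and DESeq2, stand in the submitters' processing notes. No source used here states the annotation, the use of strand or the model. The deposited table holds a mean normalized signal (counts over size factors), the fold change as log2, and the p-value with its adjusted form, per the file headers. The authors' fold changes appear shrunken toward 0, since the 1353 genes with 1 read stay within 0.0593 of 0.

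The test is the authors' adjusted p from DESeq2, under 0.05. Standard errors are the fold change divided by the normal quantile of p, and the 95% intervals follow from them. Recomputed adjusted p-values matched within 2.87e-07. The plan's edgeR fit needs counts per library and was not run. Positions, lengths and overlaps came from GENCODE 29 (24423 genes matched), and starts from RefSeq. A length is that of a single transcript chosen for each gene, so levels per kilobase depend on that choice. Each named member belongs to the 42, and other genes named are the 3 genes of each list that passed with the lowest adjusted p, unless said otherwise. Members and lists were chosen with earlier results of these data known. Calculations used scipy 1.17.1, pandas 2.3.3 and numpy 2.4.6 in Python 3.11.15, figures matplotlib 3.10.9, and the scripts' steps were tested on simulated data.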

Additional observations from a re-analysis of the deposited data

How the results depend on the processing

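The falls numbered 22 to 30 of the 42 genes, against 28, under several settings. These were adjusted p thresholds of 0.01 and 0.1, adjustment over every gene with a p, and a mean of at least 50. They also included centring on genes with a mean of at least 1000 and a fit on length, GC content and mean. The share of all tested genes called lower was 18.2% at 0.01, 26.1% at 0.1, 25.7% with the mean filter and 24.4% with centring. With adjustment over every gene with a p, 26 members fell, against 15.03% of the 17701 genes adjusted. With a fold of at least 1.5 the falls numbered 19, and no rise was left (0 of 2). The shares of all tested genes were then 10.4% lower and 6.96% higher. With Bonferroni adjustment 17 fell and 1 rose, against 9.88% and 6.78%. Without members that overlap another gene, 14 of the remaining 17 fell and 0 rose, by construction from fewer genes. The shares of tested genes in that setting, 23.2% and 21.3%, leave out only the overlapping members, not other genes with an overlap. Less the fit on length, GC content and mean, 24 fell and 4 rose, against 21.0% and 22.3% of 11774 genes, and the median log2 fold change was −0.39 in place of −0.52. In that setting ATR (0.22, adjusted p = 0.0258) and NBN (0.23, adjusted p = 0.0173) passed as higher, and PALB2, RAD51B, XRCC2 and FANCB no longer passed (adjusted p from 0.0942 to 0.251). The cause was not tested. With centring, FANCL passed (adjusted p = 0.0428), and no other call of a member changed. No paired analysis was possible because the table holds no values per library, and for the same reason no replicate could be left out in turn. Depth limits the members with low means most, RAD51B and FANCB among them.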
